A study of Mus musculus with 6 samples.

Results

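The 10 genes of the Notch pathway described here were followed in aortic endothelial cells (EC) that overexpressed Meis1, a homeobox transcription factor. They were the rows of the deposited gene table with the symbols of 4 receptors (Notch1, Notch2, Notch3 and Notch4), 3 ligands (Dll4, Jag1 and Jag2) and 3 target genes (Hey1, Hey2 and Hes1). They made up 10 of the 54429 genes in the table, and all 10 passed the filter on low counts that kept 16065 genes for testing. The question asked of them was whether ligands, receptors and targets moved together in Meis1-OE EC against control EC.

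All 6 libraries came from primary aortic EC of adult, wild-type C57BL/6 mice, a commercial primary culture. In 3 libraries the cells had been transduced with the Meis1-OE vector, and in 3 with the YFP-CTRL vector, so the controls also carried a lentivirus and a YFP reporter. Transduction was stopped after 48 h, YFP+CD31+VEC+ cells were sorted at 72 h, and the sorted cells were re-plated and grown to confluency before RNA extraction. Meis1 came from the vector and not from its own locus, the cells were adult and cultured without flow, and replicates were described as independent without naming separate animals, so p-values measure the spread between these cultures.

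Notch receptors are surface proteins that are cleaved when a ligand on a neighbouring cell pulls on them, and the freed intracellular part enters the nucleus and joins RBPJ on DNA. In endothelium, Dll4 and Notch1 restrain sprouting and set arterial fate, and the pathway is also needed in the embryonic aorta for blood stem cell formation. Hes and Hey genes encode repressors that are its best known direct targets. Because each gene was measured in bulk RNA, fewer cells with a transcript and less transcript per cell cannot be told apart.

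Library totals ran from 34176642 to 47956605 counts. Meis1 was counted at least 135325 times in each Meis1-OE library and at most 85 times in any YFP-CTRL library. All 10 endothelial marker genes had over 3 counts in every library. Their summed level was 3423 to 4289 CPM in Meis1-OE EC and 4519 to 6273 CPM in YFP-CTRL EC. The edgeR test described below called 1 of the 10 higher and 1 lower, beside 4.14% and 2.73% of all genes. Vwf was higher (24.3 to 87.1 against 6.23 to 8.13 CPM, edgeR-adjusted p = 0.0120). Tek was lower (38.7 to 51.4 against 66.1 to 90.2 CPM, edgeR-adjusted p = 0.0351). The summed level of 6 fibroblast markers was 11.9 to 12.0 CPM in Meis1-OE EC against 16.1 to 49.5 CPM in controls. Nearly all of it was 1 gene, Pdgfra, at 11.7 to 11.9 CPM against 15.6 to 49.1 CPM. That of 4 lymphatic markers, all of it in effect Lyve1 with Pdpn and Ccl21a at 0, was 76.1 to 84.1 against 161 to 461 CPM. Lyve1 was called lower (edgeR-adjusted p = 0.0301). The part of these marker differences in the results was not tested. Among 5 blood markers, 4 had at most 3 counts in every library and Ptprc reached 4. The libraries of the deposited table carry the letters A, B and C within each condition and are called OE-A to OE-C and CTRL-A to CTRL-C, with values given in that order. They differed in a proliferation score, the mean log2(CPM + 1) of 15 cell cycle genes, which was 6.45 to 6.51 in the Meis1-OE libraries but 4.29, 5.26 and 6.44 in the controls (A to C). CTRL-C therefore stood apart from the other controls on the Meis1-OE side, and results are given with and without it where its absence changed them.

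The Notch genes did not move together. Hey1 alone passed the test, upward. Its paralog Hey2 and the receptor Notch3 also had log2 fold changes (log2FC) above 1 at levels under 1 CPM. The abundant genes Notch1 (-0.68) and Jag1 (-0.65) had negative ones, as did Dll4 (-0.89) and Hes1 (-0.32), whose libraries overlapped between conditions. With all 6 libraries, Notch2, Notch4 and Jag2 stayed within 0.11 of 0 on the log2 scale, but each changed sign in some other setting. At an adjusted p under 0.05 from the quasi-likelihood test of edgeR, with Benjamini-Hochberg correction over all genes tested, 1 of the 10 genes was called higher and 0 were called lower. Of all genes tested, 4.14% were called higher and 2.73% lower. At an unadjusted p under 0.05, 5 of the 10 passed, 3 upward (Notch3, Hey1 and Hey2) and 2 downward (Notch1 and Jag1), against 26.2% of all genes. The same 5 genes had no overlap between the 3 Meis1-OE and the 3 YFP-CTRL libraries, and 33.1% of all tested genes had none. The median log2FC was -0.03 over the 10 genes and 0.01 over all tested genes.

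**Figure D1:**
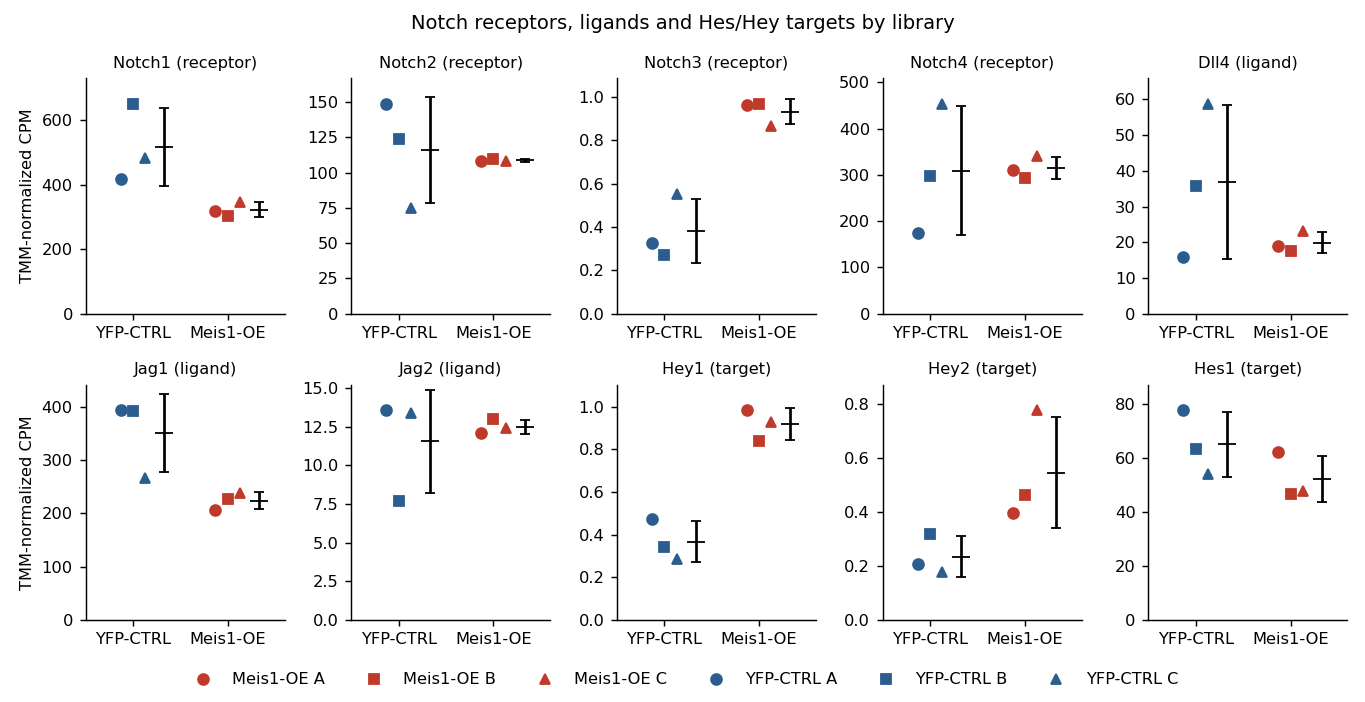
Level of each of the 10 genes in TMM-normalized CPM (linear axes from 0), with 1 point per library (letters A, B and C as circle, square and triangle) and the mean ± SD of 3 libraries beside them. Notch1 and Jag1 were lower, and Notch3, Hey1 and Hey2 higher, in all 3 Meis1-OE libraries, while Notch2, Notch4, Dll4, Jag2 and Hes1 overlapped between conditions.

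In the RefSeq annotation of build GRCm38.p6, Notch1 (chr2:26457902-26503822), Dll4 (chr2:119325784-119335666) and Jag1 (chr2:137081451-137116520) share a chromosome. So do Notch3 (chr17:32120820-32166896) and Notch4 (chr17:34564286-34588543), and Notch2 (chr3:98013538-98150367) and Hey1 (chr3:8663359-8667038). Jag2 is at chr12:112907803-112929812, Hey2 at chr10:30832359-30842783 and Hes1 at chr16:30065357-30067796. Promoter sequence was looked at because Meis1 was the factor added and RBPJ is the factor through which Notch acts. RefSeq promoters of build GRCm38.p6 matched 8 of the 10 genes, all but Hey1 and Hes1. In the 250 bases before the listed start, on either strand, the Meis core TGACAG was found for Dll4, Notch3 and Notch4, so 3 of 8, while 15.9% of all 32851 listed promoters hold it. The RBPJ core TGGGAA was found for Hey2 only, 1 of 8, against 21.6% of all promoters, and there it overlaps the longer GTGGGAA, which 5.42% hold. These matches describe letters, not bound sites, and the genes with a Meis core included one with a positive, one with a negative and one with a near 0 log2FC. The Dll4 and Hey2 promoters (chr2:119325534-119325783, plus strand, and chr10:30842784-30843033, minus strand) are shown whole, and for Notch3 (chr17:32167054-32167101, minus strand) and Notch4 (chr17:34564101-34564148, plus strand) only the bases around the match, each 5′ to 3′ along the gene with the motif in capitals. In Notch3 and Hey2 the capitals are the reverse complement of the motif.
Dll4: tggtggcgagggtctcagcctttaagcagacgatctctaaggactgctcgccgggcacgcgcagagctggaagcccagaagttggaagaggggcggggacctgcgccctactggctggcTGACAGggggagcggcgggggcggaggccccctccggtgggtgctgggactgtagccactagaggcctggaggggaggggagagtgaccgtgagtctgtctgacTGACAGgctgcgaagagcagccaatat
Hey2: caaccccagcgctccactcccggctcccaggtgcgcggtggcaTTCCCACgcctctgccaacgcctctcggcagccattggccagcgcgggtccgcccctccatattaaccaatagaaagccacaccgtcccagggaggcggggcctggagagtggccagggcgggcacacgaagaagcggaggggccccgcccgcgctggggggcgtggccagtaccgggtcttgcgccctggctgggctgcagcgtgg
Notch3: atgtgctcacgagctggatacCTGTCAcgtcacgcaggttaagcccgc
Notch4: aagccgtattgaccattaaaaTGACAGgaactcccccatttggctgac

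Levels are given as TMM-normalized CPM, counts scaled to library size after edgeR's correction for composition. Among the receptors, Notch1, the main endothelial receptor for Dll4, was at 317, 304 and 347 CPM in the Meis1-OE libraries (A to C) and at 418, 651 and 482 CPM in the controls (A to C). Every Meis1-OE library lay below every control. The log2FC was -0.68 (SE 0.17, edgeR-adjusted p = 0.0621), so Notch1 did not pass. With DESeq2 it was -0.70 (adjusted p = 0.0176), and without CTRL-C it was -0.74 (edgeR-adjusted p = 0.0297).

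Notch4, a receptor found chiefly on endothelium, was at 310, 293 and 341 CPM in the Meis1-OE libraries and at 175, 298 and 454 CPM in the controls (A to C). The 3 Meis1-OE libraries were close to each other and sat inside a control range that spanned 2.59-fold. Its log2FC was 0.03 (SE 0.31, edgeR-adjusted p = 0.968). Leaving out CTRL-A or CTRL-C moved it to -0.27 or 0.39, and it passed in neither fit (edgeR-adjusted p = 0.398 and 0.242).

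The balance of these 2 receptors was therefore not the same in all libraries. Within a library, Notch4 was counted 0.977, 0.964 and 0.983 times as often as Notch1 in Meis1-OE EC, and 0.420, 0.457 and 0.942 times as often in the controls (A to C). All 3 Meis1-OE ratios were above all 3 control ratios, by 0.79 in mean log2 ratio, but the ratio in CTRL-C was close to them. An exact two-sided permutation test gave p = 0.1, the smallest that 3 libraries against 3 allow.

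Notch2 was at 108, 110 and 108 CPM in Meis1-OE EC and at 149, 124 and 75.2 CPM in the controls (A to C). The Meis1-OE libraries lay between controls B and C, and the log2FC was -0.09 (SE 0.23, edgeR-adjusted p = 0.833). It changed sign with the setting. Without CTRL-C it was -0.34 (adjusted p = 0.0375), without CTRL-A it was 0.11 (adjusted p = 0.793), and on library totals it was 0.04 (adjusted p = 0.930), all from edgeR.

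Notch3, the receptor best known from vascular smooth muscle and pericytes, was rare. It was counted 44, 44 and 40 times in Meis1-OE EC and 11, 11 and 25 times in YFP-CTRL EC, which is 0.864 to 0.969 CPM against 0.27 to 0.55 CPM. Every Meis1-OE library was higher. The log2FC was 1.27 (SE 0.34, edgeR-adjusted p = 0.0689), and the adjusted p was 0.0434 with DESeq2 and 0.0126 from edgeR without CTRL-C. Of 6 smooth muscle markers, all had a count, and 3 had over 3 counts in every library. Their summed level was 202 to 238 CPM in Meis1-OE EC and 95.7 to 240 CPM in YFP-CTRL EC, mostly from Smtn. Myh11, the defining myosin of that cell type, had 4 to 7 counts in every library, and Acta2 had 46 to 152 counts in Meis1-OE EC and 7, 89 and 902 in the controls (A to C). Des, a muscle filament gene, was the list's 1 gene called higher, with 18 to 24 counts in Meis1-OE EC and 0 to 2 in YFP-CTRL EC. Tagln had 2 counts in each Meis1-OE library and 7, 2 and 29 in the controls (A to C). Cnn1 had 5, 3 and 2 counts in Meis1-OE EC and 1, 0 and 13 in the controls (A to C). Tagln and Cnn1 had too few counts to be tested. The part of such cells in the Notch3 value was not tested.

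Divided by the length of the longest coding transcript, Notch4 was the most abundant receptor transcript in Meis1-OE EC, at 47.8 ± 3.64 CPM per kb (SD, n = 3), followed by Notch1 at 34 ± 2.29, Notch2 at 10.3 ± 0.159 and Notch3 at 0.116 ± 0.00735 CPM per kb. In YFP-CTRL EC, Notch1 was at 54.5 ± 12.7 and Notch4 at 46.9 ± 21.2 CPM per kb, a pair that did not differ beyond their spread. Notch2 followed at 11.0 ± 3.57 and Notch3 at 0.0474 ± 0.0185 CPM per kb. On this scale Notch1 made up 36.8 to 37.1% of the 4 receptors in the Meis1-OE libraries, and 51.9%, 54.7% and 40% in the controls (A to C). Notch4 was the larger share in all 3 Meis1-OE libraries and in CTRL-C, and Notch1 was the larger in CTRL-A and CTRL-B.

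**Figure D2:**
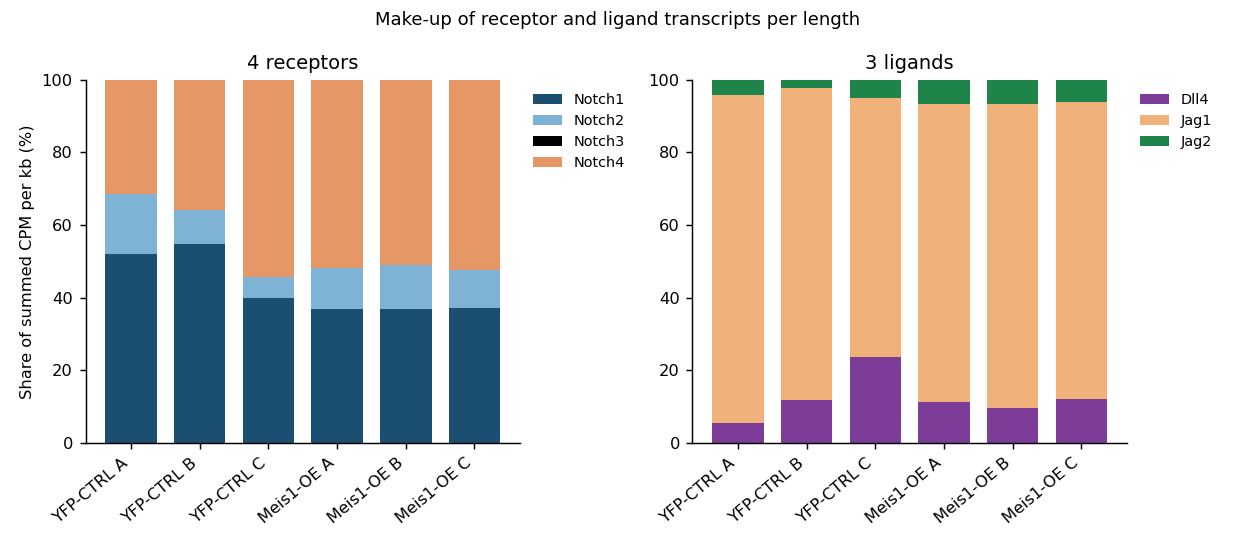
Share of each receptor (left) and each ligand (right) in the summed CPM per kb of its role, in %, with 1 bar per library. Notch4 was above 50% in all 3 Meis1-OE libraries and in CTRL-C, Jag1 was the largest share among Dll4, Jag1 and Jag2 in all 6 libraries (Dll1 is not included), and the Notch3 share, at most 0.138%, is too small to see.

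The ligands of the list are membrane proteins, and Dll4 and Jag1 have been described as opposing each other on endothelial Notch. Jag1 was at 206, 227 and 238 CPM in Meis1-OE EC and at 394, 392 and 266 CPM in the controls (A to C). All Meis1-OE libraries were lower, with CTRL-C the nearest control. Its log2FC was -0.65 (SE 0.17, edgeR-adjusted p = 0.0652). It passed with DESeq2 (-0.66, adjusted p = 0.0182) and without CTRL-C (-0.83, edgeR-adjusted p = 0.00153), but was at -0.32 (edgeR-adjusted p = 0.283) with the proliferation score in the model.

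Dll4, the arterial and tip cell ligand, had the widest control range of the 10 genes as a fold, with the highest control 3.70 times the lowest. It was counted 866, 799 and 1075 times in Meis1-OE EC and 540, 1459 and 2672 times in the controls (A to C), or 18.9, 17.6 and 23.2 CPM against 15.9, 35.8 and 58.8 CPM. CTRL-A lay just below the Meis1-OE libraries, and the other controls lay well above them. The log2FC was -0.89 (SE 0.42, edgeR-adjusted p = 0.226). It was -1.26 (adjusted p = 0.0303) without CTRL-A, and -0.40 (adjusted p = 0.417) without CTRL-C, both from edgeR.

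Jag2, which shares receptors with Jag1, was at 12.1, 13.0 and 12.4 CPM in Meis1-OE EC and at 13.6, 7.72 and 13.4 CPM in YFP-CTRL EC, where library B was low. Its log2FC was 0.11 (SE 0.22, edgeR-adjusted p = 0.791), and -0.10 without CTRL-B. Among these 3 ligands, Jag1 had the most transcript per length in both conditions, at 39.8 ± 2.86 CPM per kb in Meis1-OE EC and 62.5 ± 13.0 CPM per kb in YFP-CTRL EC (SD, n = 3 each). Dll4 was at 5.32 ± 0.782 and 9.83 ± 5.73 CPM per kb, and Jag2 at 3.08 ± 0.117 and 2.85 ± 0.818 CPM per kb. Dll1, a ligand outside the 10 genes, was at 22.9 ± 2.58 and 55.7 ± 13.8 CPM per kb, which in controls did not differ from Jag1 beyond their spread. The log2 ratio of Dll4 to Jag1 counts was -3.44, -3.69 and -3.35 in Meis1-OE EC and -4.63, -3.45 and -2.18 in the controls (A to C). The Meis1-OE ratios sat inside the control range, with a mean difference of -0.07 and p = 1 from an exact two-sided permutation test. That difference was 0.55 without CTRL-C.

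Of the 3 target genes, only Hey1 passed. Hey1, a repressor downstream of Notch in arterial EC, was counted 45, 38 and 43 times in Meis1-OE EC and 16, 14 and 13 times in YFP-CTRL EC. That is 0.985, 0.837 and 0.929 CPM against 0.471, 0.343 and 0.286 CPM, and every Meis1-OE library was above every control. Its log2FC was 1.33 (SE 0.30), a 2.51-fold rise (edgeR-adjusted p = 0.0457). The adjusted p was 0.0244 with DESeq2 and 0.0397 from edgeR without CTRL-C. Hey1 did not pass once CTRL-B or a single Meis1-OE library was left out, where the adjusted p reached 0.192 from edgeR and the log2FC lay between 1.27 and 1.39.

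Hey2, which acts with Hey1 in the arterial program, was counted 18, 21 and 36 times in Meis1-OE EC and 7, 13 and 8 times in YFP-CTRL EC. The conditions did not overlap in CPM, but OE-C was well above the other 2. The log2FC was 1.21 (SE 0.41, edgeR-adjusted p = 0.123 and 0.183 from DESeq2), and 0.87 without OE-C.

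Hes1, a broader target expressed in many tissues, was the only abundant one of the 3. It was at 62.1, 46.6 and 47.7 CPM in Meis1-OE EC and at 77.8, 63.1 and 54.1 CPM in YFP-CTRL EC. OE-A overlapped the controls, and the log2FC was -0.32 (SE 0.18, edgeR-adjusted p = 0.299). Per length, Hes1 was at 35.5 ± 5.89 CPM per kb in Meis1-OE EC, against 0.416 ± 0.0338 for Hey1 and 0.214 ± 0.0802 for Hey2 (SD, n = 3). Hey1 was counted 0.0160, 0.0182 and 0.0197 times as often as Hes1 in Meis1-OE EC and 0.00624, 0.00563 and 0.00549 times as often in YFP-CTRL EC. These ratios differed by 1.63 on the log2 scale without overlap (p = 0.1 from an exact two-sided permutation test, the smallest it can give).

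**Figure D3:**
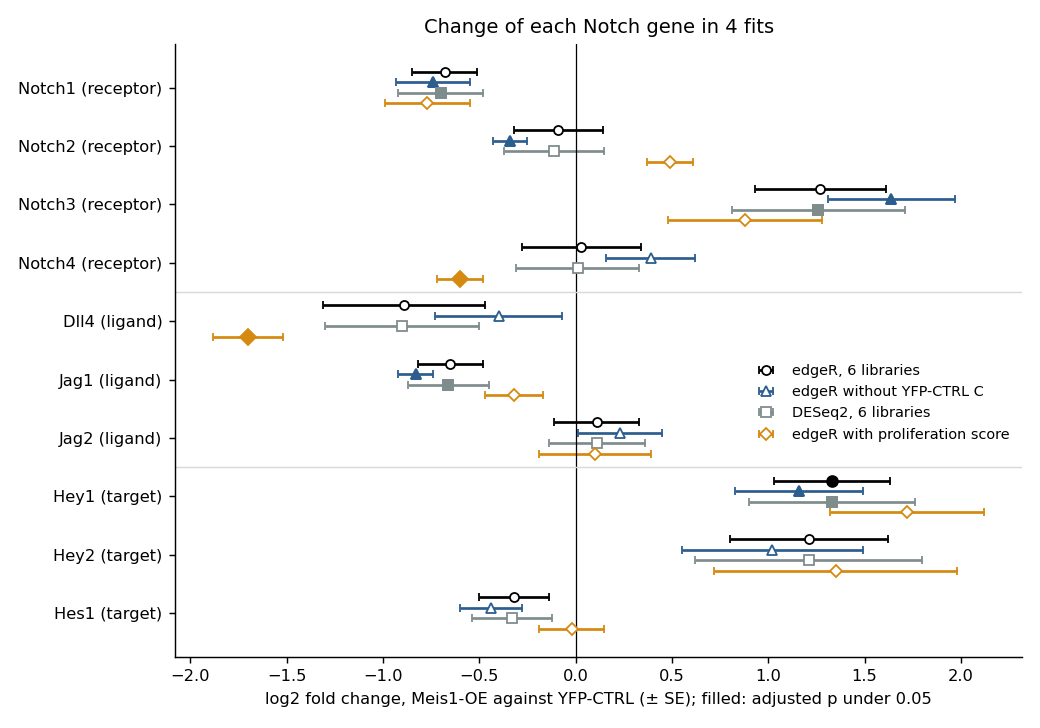
Log2 fold change (± SE) of Meis1-OE against YFP-CTRL EC for each of the 10 genes in 4 fits, with filled symbols for an adjusted p under 0.05. Hey1 is filled in 3 of the 4 fits, Notch1, Notch3 and Jag1 are filled without CTRL-C and with DESeq2, and Dll4 and Notch4 are filled, below 0, only with the proliferation score as a covariate.

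Both the choice of program and the control libraries moved these calls. With DESeq2, 2 of the 10 genes were called higher (Notch3 and Hey1) and 2 lower (Notch1 and Jag1), where 6.21% of all genes with an adjusted p were higher and 6.14% lower. Without CTRL-C, edgeR called 2 of the 10 higher (Notch3 and Hey1) and 3 lower (Notch1, Notch2 and Jag1), and it called 16.5% of all genes higher and 15.2% lower. The calls for all genes rose along with those for the Notch genes in that fit.

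Several Notch genes differed among the control libraries in the order of their proliferation scores. With 3 controls such an order can arise by chance, and its share over all genes was not counted. Notch4 and Dll4 were lowest in CTRL-A and highest in CTRL-C, a 2.59-fold and a 3.70-fold range, while Notch2, Jag1, Hey1 and Hes1 ran the other way. Some of these steps were small, as for Jag1 in CTRL-A and CTRL-B (394 and 392 CPM) and Hey1 (16, 14 and 13 counts, A to C). The Meis1-OE libraries had nearly equal scores and spanned at most 1.33-fold for each of these 6 genes. Compared with CTRL-C alone, which had nearly the same score, Dll4 in the Meis1-OE libraries was at 29.9 to 39.5% of its level, Notch4 at 64.6 to 75.0% and Notch1 at 63.1 to 71.9%. Hey1 was at 293 to 344% of its level there and Notch2 at 143 to 147%. This is a comparison with 1 library and has no replicate check.

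Once each library's proliferation score was added to the edgeR model, Dll4 was at -1.70 (SE 0.18, adjusted p = 0.00723) and Notch4 at -0.60 (SE 0.12, adjusted p = 0.0428). These 2 of the 10 were called lower and 0 higher, with 1.97% of all genes lower and 2.42% higher. Hey1 was at 1.72 (adjusted p = 0.0622), and Hes1 at -0.02. Notch2 turned to 0.49 (adjusted p = 0.0691). Notch3 was at 0.88 (adjusted p = 0.288) and Notch1 at -0.77 (adjusted p = 0.109). The fit rests on few libraries, since only CTRL-C shared the score of the Meis1-OE libraries, and whether growth state, the vector or the culture set these differences was not tested.

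**Figure D4:**
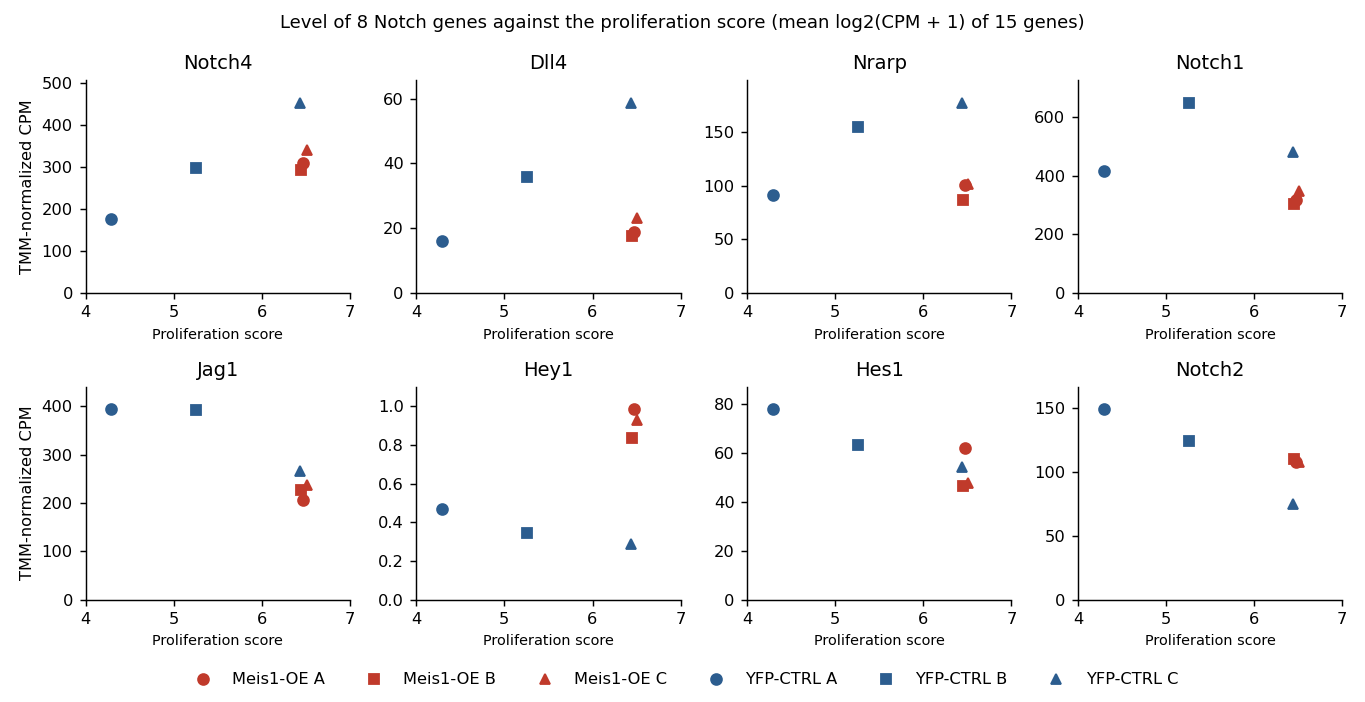
Level in TMM-normalized CPM against the proliferation score of the library, for 7 of the 10 genes and Nrarp, with 1 point per library. At a score near 6.5, where CTRL-C meets the 3 Meis1-OE libraries, Notch4, Dll4, Nrarp, Notch1 and Jag1 were below that control and Hey1 and Notch2 above it.

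Across the 6 libraries, the 10 genes showed no single pattern. By Pearson correlation of log2 CPM over the 6 libraries, a description in which both conditions share the points, Hey1 was most like Hey2 (0.802), Notch1 most like Jag1 (0.787) and Notch4 most like Dll4 (0.75). The least alike pairs were Notch3 with Jag1 (-0.979) and Notch2 with Notch4 (-0.938). Outside the list, among genes with a mean of at least 5 CPM, Pcdh1 was most like Notch1 (0.998), Eral1 and Prex2 most like Notch4 (0.996 each) and Tnpo1 most like Jag1 (0.998). Socs3 was most like Hes1 (0.990) and Ptgs1 most like Hey1 (0.991). With 6 libraries such values are common, most of all with Jag1. Of 10221 genes, 799 were above 0.95 with Jag1, 147 with Notch4, 126 with Notch1 and 37 with Hes1. For Hey1 it was 60 of 10222.

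The rest of the pathway was read from lists of 67 further genes, of which 54 were tested. Of these, 5 were higher (Eogt, Kat2b, Gja4, Gja5 and Igfbp3) and 2 lower (Dll1 and Mfng), beside the 4.14% and 2.73% of all genes. Their median log2FC was -0.04.

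**Figure D5:**
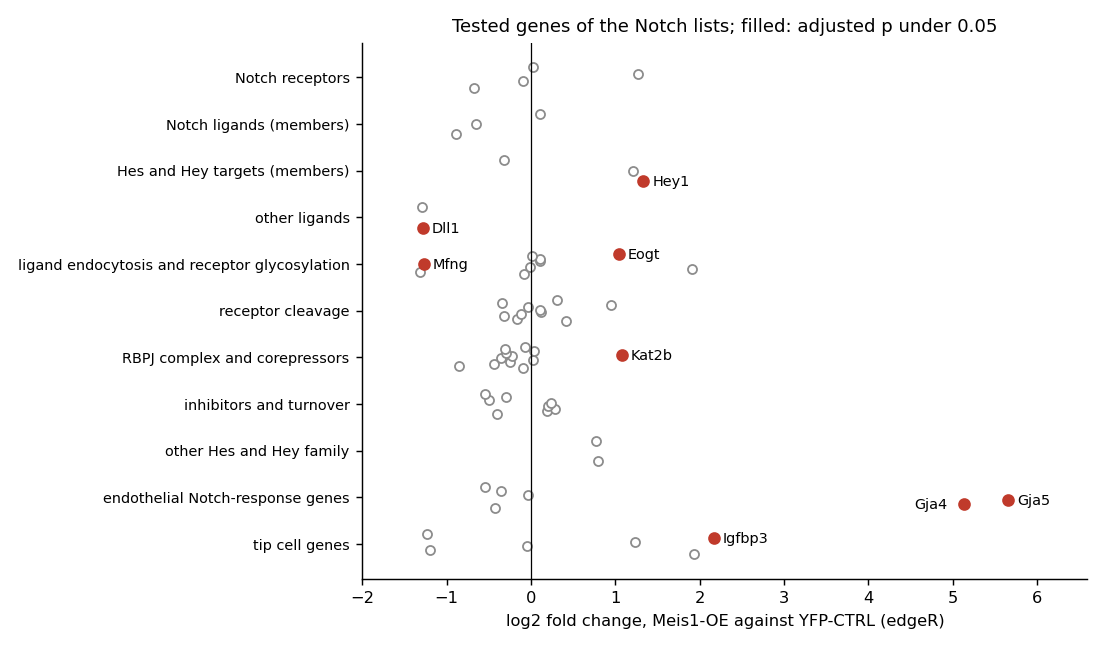
Log2 fold change of every tested gene in the Notch lists, 1 row per list and 1 point per gene, with filled and named points for an adjusted p under 0.05 in edgeR; height within a row has no meaning. Apart from Gja4 and Gja5 above 5, and Igfbp3, the called genes lie between -1.28 and 1.33.

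Among the other ligands, Dll1, a ligand related to Dll4, fell. It was at 73.6, 80.2 and 91.9 CPM in Meis1-OE EC and at 154, 252 and 193 CPM in YFP-CTRL EC, and every Meis1-OE library was lower. Its log2FC was -1.28 (SE 0.19, edgeR-adjusted p = 0.0130), and Dll1 also passed without CTRL-C (adjusted p = 0.00584) and with the proliferation score (-1.44, adjusted p = 0.0243). It did not pass without any one Meis1-OE library, with an adjusted p of up to 0.0863 from edgeR. Of the 5 further ligands, 2 were tested, and Dll3, Dlk1 and Dlk2 had too few counts, with at most 31 in any library.

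Enzymes that modify the receptors' sugars were read next, since they tune which ligand a receptor answers. Of 10 genes for ligand endocytosis and receptor glycosylation, 9 were tested. The edgeR test called 1 higher and 1 lower, beside 4.14% and 2.73% of all genes. Without adjustment, p was below 0.05 for 2 genes upward and 2 downward, against 26.2% of all genes in either direction. Mfng, a Fringe glycosyltransferase, was at 13.7, 13.2 and 16.2 CPM in Meis1-OE EC and at 34.4, 45.5 and 24.3 CPM in YFP-CTRL EC. All Meis1-OE libraries lay below the controls, with a log2FC of -1.27 (SE 0.23, edgeR-adjusted p = 0.0242). It did not pass with the proliferation score (-0.97, adjusted p = 0.0980), nor without CTRL-B or any one Meis1-OE library, where the adjusted p reached 0.139 from edgeR. Its relative Lfng was at 15 ± 0.784 and 15.1 ± 2.81 CPM (SD, n = 3 each), with a log2FC of -0.01. Eogt, which adds GlcNAc to extracellular EGF repeats, was at 71.4 ± 5.67 CPM with Meis1-OE against 34.8 ± 11.9 CPM in controls (SD, n = 3 each), with a log2FC of 1.04 at the edge of the threshold (edgeR-adjusted p = 0.05). With the proliferation score in the model it was 0.55 (adjusted p = 0.0699), and without single libraries the adjusted p reached 0.201 from edgeR.

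No gene for the cleavage of the receptors was called. Of 10 such genes, 0 were called in either direction by edgeR, and log2FCs ran from -0.34 to 0.95. Before adjustment, p was below 0.05 for 2 of them upward and 1 downward, beside 26.2% of all genes in either direction. Adam10, the protease that makes the ligand-dependent cut, was at 264 ± 32.5 CPM with Meis1-OE against 197 ± 10.1 CPM in controls (SD, n = 3 each). Its log2FC was 0.42 (edgeR-adjusted p = 0.0863), and it passed only on library totals (0.56, adjusted p = 0.0217), where the median of all genes was shifted by 0.15. DESeq2 called 1 gene of this list higher, Aph1b, and 0 lower, beside 6.21% and 6.14% of all genes with an adjusted p.

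In the nucleus, Rbpj, the DNA-binding partner of the cleaved receptor, was at 130 ± 3.20 and 140 ± 26.2 CPM (SD, n = 3 each), with a log2FC of -0.10 (edgeR-adjusted p = 0.713). Of 12 genes of the RBPJ complex and its corepressors, 3 had a positive and 9 a negative log2FC. At an unadjusted p under 0.05, 1 was higher and 4 lower, where 26.2% of all genes passed. Kat2b, a histone acetyltransferase, was the only one of the 12 that edgeR called with all libraries, where 4.14% of all genes were called higher. DESeq2 also called Maml1, a coactivator of cleaved Notch, lower (-0.86, adjusted p = 0.0289), and without CTRL-C edgeR called Maml1, Ep300 and Kdm1a lower. In that edgeR fit 15.2% of all genes were called lower. Kat2b was at 15, 17.5 and 18.7 CPM in Meis1-OE EC and at 5.89, 6.91 and 11.3 CPM in YFP-CTRL EC, with a log2FC of 1.08 (edgeR-adjusted p = 0.0489). With the proliferation score it was 0.63 (adjusted p = 0.104), and Kat2b passed in only 1 of the 6 fits without a library, that without CTRL-C. Of the 9 genes for inhibitors and turnover, 8 were tested and 0 were called by edgeR. An unadjusted p under 0.05 was found for 4 of them, against 26.2% of all genes. DESeq2 called 0 of them.

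Readouts of Notch signalling beyond the 3 targets gave no single direction. Of 7 endothelial Notch-response genes, 6 were tested, 2 with a positive and 4 with a negative log2FC. The 2 positive ones were the connexin genes given below, and the 4 negative ones ran from -0.55 to -0.03. Nrarp, a target that feeds back on the receptor, was at 101, 87.2 and 102 CPM in Meis1-OE EC and at 91.2, 155 and 178 CPM in the controls (A to C). Like Dll4, it overlapped only through CTRL-A, without which it passed (-0.79, edgeR-adjusted p = 0.0191). Its log2FC was -0.55 (edgeR-adjusted p = 0.193), and -1.0 with the proliferation score (adjusted p = 0.0243). Efnb2, an arterial membrane ligand, had a log2FC of -0.43 (edgeR-adjusted p = 0.118). The conditions did not overlap, as for 33.1% of all tested genes. Without CTRL-C the log2FC of Efnb2 was -0.57 (edgeR-adjusted p = 0.00474), and with the proliferation score -0.18 (edgeR-adjusted p = 0.524).

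The arterial connexin genes went the other way. Gja4, which encodes a gap junction protein of arterial EC, was counted 263, 596 and 805 times in Meis1-OE EC and 4, 10 and 28 times in YFP-CTRL EC, a log2FC of 5.14 (SE 0.63, edgeR-adjusted p = 0.00747). Without CTRL-B its adjusted p was 0.0515. Gja5, its usual partner in arteries, was counted 2932, 3941 and 4497 times against 18, 53 and 135 times, a log2FC of 5.66 (edgeR-adjusted p = 0.00386), and it passed without each single library. Among 8 further genes of the Hes and Hey family and its relatives, Heyl, Hes2, Hes5 and Helt had 0 counts in every library. A count of 0 allows up to 3 counts per library. Of the 2 tested, Hes6 and the relative Bhlhe40, 0 were called by edgeR. Both had an unadjusted p under 0.05, as did 26.2% of all genes, and both were called higher by DESeq2. Whether Notch moved either gene was not tested. Of 8 genes of sprouting tip cells, 6 were tested, 3 with a positive and 3 with a negative log2FC. DESeq2 called Esm1, Pdgfb and Igfbp3 higher and Kdr and Apln lower. Of all genes with an adjusted p, it called 6.21% higher and 6.14% lower. In edgeR, Kdr, the main VEGF receptor, was at -1.23 (adjusted p = 0.0504) and the secreted peptide gene Apln at -1.20 (adjusted p = 0.0684). Neither overlapped between conditions, which also held for 33.1% of all tested genes. Igfbp3, a secreted binding protein for insulin-like growth factors, was the only one called by edgeR (2.17, edgeR-adjusted p = 0.0135), and it did not pass without CTRL-B or any one Meis1-OE library (adjusted p up to 0.0753).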

How the data were processed

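RNA from 6 libraries of mouse aortic EC, 3 Meis1-OE and 3 YFP-CTRL, was sequenced after ribosomal RNA depletion. The authors deposited estimated counts per gene, which need not be whole. The submitters' processing notes name build mm10, and the aligner, counter and annotation are not given in the sources used here. The columns carry letters and the labels numbers, so libraries were grouped by condition and named by letter. No column of the table was left unused.

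Counts were rounded, genes were filtered with filterByExpr, which left 16065 genes, and TMM factors, the quasi-likelihood test and Benjamini-Hochberg adjustment of edgeR 4.0.16 were run in R 4.3.3 (threshold 0.05) on both conditions without covariates. Standard errors were derived from the F statistic. Totals of 34176642 to 47956605 counts limit precision mainly for Notch3, Hey1 and Hey2, and a count of 0 allows up to 3 counts per library, for counting error only. Count ratios used a prior count of 0.5. Lengths were those of the longest coding transcript in GENCODE M1, and promoters came from RefSeq (GRCm38.p6). Alternatives were other scalings and filters, a robust fit, DESeq2 1.42.0, which the study names for this experiment, limma-voom (limma 3.58.1), a proliferation score, a block by letter, and leaving out each library. On simulated counts for these libraries, with 16065 genes, edgeR called 33.3% of 2-fold and 74.7% of 4-fold changes, with 8 false calls. DESeq2 called 61.0% and 84.0% of them, with 42 false calls.

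The Notch genes and lists were chosen with earlier results of these data known. All 10 Notch genes are named. From the other lists, genes past the threshold are named, plus Rbpj, Heyl, Nrarp, Lfng, Mfng, Adam10, Dll1 and Efnb2. Most alike genes were those with the highest correlation among genes with a mean of at least 5 CPM. The gene most like Dll4 is not reported here. Aph1b, Hes6, Bhlhe40, Maml1, Ep300, Kdm1a, Esm1, Pdgfb, Kdr and Apln were named after their values were seen. So were Vwf, Tek, Lyve1, Des, Pdgfra and the untested genes.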

Additional observations from a re-analysis of the deposited data

How the results depend on the processing

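Counts of calls moved most with single libraries. Leaving out 1 library at a time gave 115 to 2717 genes higher and 16 to 2498 lower over all genes (665 and 438 with all 6), 0 to 2 higher and 0 to 3 lower among the 10 Notch genes, and 1 to 13 higher and 0 to 11 lower among the other pathway genes. Library totals gave 1048 higher and 179 lower, with 10 pathway genes higher, and shifted the median of all genes to 0.15. DESeq2 gave 1128 and 1115 genes, 2 and 2 Notch genes, and 10 and 5 pathway genes. The proliferation score gave 388 genes higher, 0 Notch genes higher and 2 lower, and 4 pathway genes lower. Without a filter 0 Notch genes were higher, and with at least 10 counts in every library, where Hey2 could not be tested, 2 pathway genes were. The cause of these shifts was not tested.

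With a replicate block by column letter, 189 genes were lower, 0 Notch genes higher and 1 pathway gene lower, and Hey1 had an adjusted p of 0.0715 from edgeR. Deviations from the group means correlated at 0.267, 0.12 and 0.0697 between same-letter libraries (A to C). The same-letter control was the most alike for OE-A and OE-B, while OE-C was more like CTRL-B (0.214). These values cannot decide whether same-letter libraries were handled together, which was not tested.

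Among the genes named by rule, some directions turned. Notch2 was 0.04 on library totals and 0.49 with the score (-0.34 to 0.11 without single libraries), Notch4 was -0.60 with the score (-0.27 to 0.39), and Jag2 ran from -0.10 to 0.24. Rbpj was 0.04 on library totals and 0.17 with the score (-0.26 to 0.01), and Lfng was 0.13 and 0.12, with 0.01 from limma-voom and 0.00 with the block (-0.14 to 0.15). The Dll4 to Jag1 difference ran from -0.68 to 0.55. Over all alternatives for the 10 Notch genes, 125 of 149 values kept direction and side of the threshold, 7 lost and 10 gained a call in the same direction, and 7 changed sign, of which Notch4 with the score also gained a call.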
